A study of Glycine max with 5 samples.

Results

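SWEET proteins are sugar exporters, and 8 SWEET genes of soybean (Glycine max) could be followed in this comparison of mature pollen with sporophytic tissues. They were taken from the probe sets whose only gene symbol in the annotation of the Affymetrix soybean array starts with SWEET. This rule gave 10 of the 37593 soybean probe sets, 1 each for SWEET13, SWEET24, SWEET28, SWEET29, SWEET34 and SWEET42 and 2 each for SWEET17 and SWEET31. The rule reads symbols alone. The gene table of the assembly Glycine_max_v4.0 lists 43 genes under a SWEET symbol, and the others were not analysed here.

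SWEETs form pores in a membrane through which sucrose or hexoses pass down their gradient, in either direction and without a proton. Plants use them where sugar has to leave a cell, as in phloem loading, nectar secretion, seed filling and the feeding of nodules, and the older family name, MtN3 nodulin, comes from a gene of Medicago nodules. Pollen has no plasmodesmata to the anther, so its sugar has to be released by anther cells and taken up from outside. In Arabidopsis, the loss of SWEET8 disturbs the pollen wall. Soybean SWEET numbers do not follow those of Arabidopsis, so a shared number does not mean a shared role.

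Pollen came from mature plants of the cultivar Bragg kept at 30°C under 16 hours of light and 8 hours of dark, with flowering brought on by 12 hours of light, and grains were gathered by rubbing anthers together and freed of anther tissue (3 arrays). Sporophytic tissues came from 10-day-old greenhouse seedlings of the same cultivar (2 arrays). The methods list stem, root and leaf, whereas another passage of the study names an equal mix of leaf and stem RNA, so the share of root is uncertain. Each sporophytic array is a mixture of organs, and a lower signal from fewer expressing cells cannot be told apart from less RNA per cell. Nothing in the labels says how many plants stood behind an array beyond the word biological replicate.

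The values are log2 signals after Robust Multiarray Averaging (RMA), the authors' background correction, quantile normalization and probe set summary. Over the soybean probe sets used here the arrays were not on 1 common distribution, with medians of 4.11 to 4.24 in pollen, against 5.25 and 5.43 in sporophytic tissues. A signal of 100, the minimum used in the methods, is 6.64 on this scale and was reached by 18.4 to 19.9% of probe sets in pollen, against 33.7 and 35.9% in sporophytic tissues. In their summed signals, pollen and leaf markers followed the labels. The summed linear signal of 5 pollen markers, which the study chose on these arrays, was 158827 to 169389 in pollen, against 26.3 to 28.9 in sporophytic tissues. For 10 probe sets of the leaf genes CAB3 and PSAD it was 1635 to 1889 in pollen, against 67484 to 124221 in sporophytic tissues. For 11 probe sets of the phloem SEO genes it was 488 to 593 in pollen, against 4232 to 4435 in sporophytic tissues. Of the leaf probe sets 6 were called lower in pollen and 1 higher, and of the phloem ones 7 were called lower, where 34.5% of all probe sets were called lower and 18.9% higher. Some of them still passed a signal of 100 on every pollen array. Their pollen means reached 8.93 for a PSAD, 8.59 and 8.82 for CAB3 and 8.27 for an SEO-F3 probe set. By contrast, 4 of 10 leaf and 4 of 11 phloem probe sets were below 100 on all 5 arrays. The source of this signal in pollen was not tested. The 3 probe sets of root transporters (PHT1-3, PHT1-8, NRT2) stayed below a signal of 100 on every array, so they cannot tell how much root was present. Of these, 1 was called higher in pollen (PHT1-8, by 0.24, adjusted p = 0.0295 from limma) and 0 lower.

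SWEET13 and SWEET17 were higher in pollen. SWEET13 had log2 signals of 8.79, 9.77 and 9.51 on the pollen arrays, against 4.25 and 4.09 on the sporophytic arrays. The groups lay far apart, with 4.55 log2 units between the lowest pollen array and the highest sporophytic one. The difference was 5.19 (standard error 0.34, adjusted p = 8.3e-04 from limma) on the log2 scale, with a 95% interval of 4.23 to 6.15. No fold is given for SWEET13, SWEET17 and SWEET42, because 1 group lay below a signal of 100 on every array.

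SWEET17 has 2 probe sets, and both were higher in pollen. The first had 7.71, 8.62 and 8.59 on the pollen arrays, against 3.27 on each sporophytic array. The second had 7.51, 8.75 and 8.07 on the pollen arrays, against 4.14 on each sporophytic array. The log2 differences were 5.04 (standard error 0.34, adjusted p = 9.0e-04 from limma) and 3.97 (standard error 0.41, adjusted p = 0.0028 from limma). The 95% intervals, 4.08 to 6.0 and 2.82 to 5.13, overlap, and the mean of both probe sets differed by 4.51. The study's annotation matches the second probe set to the Arabidopsis gene for SWEET15, also called SAG29, a sucrose exporter known from senescing leaves and from seeds. In the reference assembly SWEET17 lies directly beside SWEET16, for which no probe set carried the symbol.

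These 3 probe sets shared their lowest pollen array. Replicate 1 was the lowest for each of them, by 0.85 for SWEET13 and by 0.89 and 0.90 for SWEET17 against the mean of the other 2 arrays. Without pollen replicate 1, the differences of SWEET13 and SWEET17 became larger and stayed called. With arrays weighted by limma the differences were 5.35 for SWEET13 and 5.24 and 4.08 for SWEET17, but the calls were lost (adjusted p = 0.0619, 0.0643 and 0.235 from limma). On both sporophytic arrays these probe sets were below a signal of 100, and on every pollen array above it. This pattern, with a call of higher and at least a 2-fold difference, held for 3 of the 10 SWEET probe sets and for 4.13% of all probe sets.

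**Figure D1:**
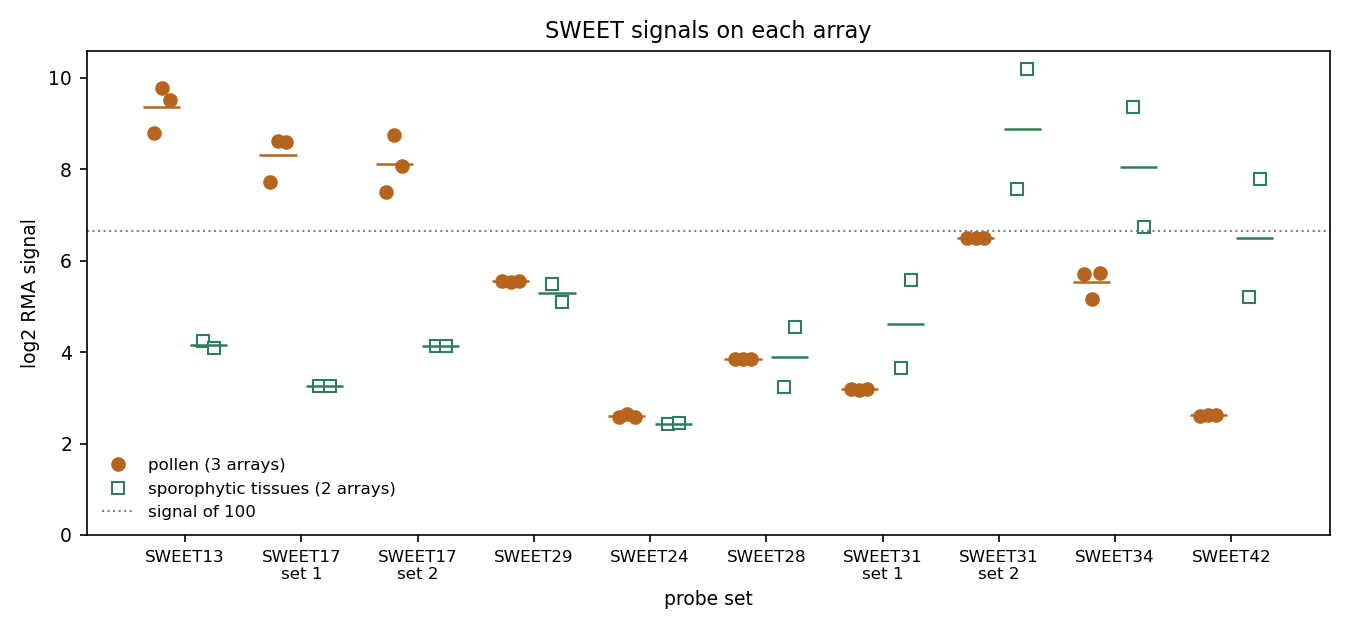
Log2 RMA signal of the 10 SWEET probe sets on each array, with 3 pollen arrays (filled circles) left of 2 sporophytic arrays (open squares), the group mean as a short line and a signal of 100 as a dotted line. SWEET13 and both SWEET17 probe sets lie between 7.51 and 9.77 in pollen and at or below 4.25 in sporophytic tissues, whereas the 2 sporophytic arrays stand apart for SWEET28, SWEET31, SWEET34 and SWEET42.

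SWEET42 was called lower in pollen. Its probe set had 2.60, 2.62 and 2.61 on the pollen arrays, against 5.21 and 7.78 on the sporophytic arrays. All pollen arrays were below both sporophytic arrays, but the sporophytic arrays themselves lay 2.57 apart, and 1 of them was below a signal of 100. SWEET42 fell by 3.89 on the log2 scale (standard error 0.85, adjusted p = 0.0237 from limma), with a 95% interval of -6.27 to -1.50. The standard deviation was 0.011 on the pollen arrays and 1.82 on the sporophytic arrays. Limma fits 1 spread for both groups, so the sporophytic spread is understated in this standard error, interval and call. This call was lost when any 1 pollen array was left out (adjusted p of 0.0802 to 0.0863 from limma), although the difference stayed between -3.89 and -3.88, and also at an adjusted p under 0.01. It was lost with the replicate block too (adjusted p = 0.119 from limma), where the difference was -3.89.

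SWEET31, as deposited, lay lower on all pollen arrays for both of its probe sets, without a call. The second had 6.50, 6.51 and 6.50 on the pollen arrays, against 7.57 and 10.20 on the sporophytic arrays. The first had 3.19, 3.17 and 3.19 on the pollen arrays, against 3.65 and 5.59 on the sporophytic arrays. The differences were -2.38 for the second (standard error 0.87, adjusted p = 0.0904 from limma) and -1.43 for the first (standard error 0.64, adjusted p = 0.141 from limma), and the 95% intervals, -4.83 to 0.06 and -3.24 to 0.37, both reach past 0. As for SWEET42, the shared spread understates that of the sporophytic arrays in these standard errors and intervals. The standard deviations were 0.003 in pollen and 1.86 in sporophytic tissues for the second probe set, and 0.007 and 1.37 for the first. The mean of the 2 probe sets differed by -1.91 (adjusted p = 0.108 from limma). The separation depended on the scaling, and the first probe set kept it only with quantile normalization over the table. Under that scaling the second probe set had 7.22, 7.01 and 7.06 on the pollen arrays, against 6.69 and 9.89 on the sporophytic arrays, and with equal array medians both probe sets overlapped, the first with a difference of -0.29.

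SWEET34, as deposited, also lay lower on all pollen arrays without a call, with its sporophytic arrays in the opposite order. Its probe set had 5.71, 5.17 and 5.74 on the pollen arrays, against 9.36 and 6.73 on the sporophytic arrays. Only the sporophytic arrays reached a signal of 100. The difference was -2.51 (standard error 0.89, adjusted p = 0.0857 from limma), with a 95% interval of -5.02 to 0.01. Here too the shared spread understates the sporophytic one, with standard deviations of 0.32 in pollen and 1.86 in sporophytic tissues. Under other scalings the groups overlapped. With quantile normalization over the table SWEET34 had 6.47, 5.71 and 6.33 on the pollen arrays, against 8.93 and 5.72 on the sporophytic arrays, a difference of -1.16, and with equal array medians the difference was -1.36.

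SWEET24, SWEET28 and SWEET29 stayed below a signal of 100 on every array, as did the first SWEET31 probe set. SWEET29 had 5.55, 5.54 and 5.56 on the pollen arrays, against 5.49 and 5.11 on the sporophytic arrays, a difference of 0.25 with a 95% interval of -0.13 to 0.63. SWEET24 had 2.58, 2.65 and 2.58 on the pollen arrays, against 2.42 and 2.44 on the sporophytic arrays, a difference of 0.17 with a 95% interval of 0.03 to 0.32 (adjusted p = 0.0564 from limma). SWEET28 had 3.85 on each pollen array, the same value as deposited, against 3.23 and 4.56 on the sporophytic arrays, a difference of -0.04 with a 95% interval of -1.28 to 1.19. None of these 3 genes was called, and for SWEET28 alone the groups overlapped.

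By limma's test with adjustment over all probe sets, 3 of 10 SWEET probe sets (2 of 8 genes) were called higher in pollen, against 18.9% of all probe sets, and 1 of 10 was called lower, against 34.5%. Every pollen array was above both sporophytic arrays for 5 of the 10 probe sets, against 36.4% of all, and below both for 4, against 41.7%. The median log2 difference was 0.06 over the SWEET probe sets and -0.22 over all probe sets. Counts over 10 probe sets do not set the family apart from the whole array. The members' differences ran from -3.89 to 5.19, and those of all probe sets from -11.65 to 13.16.

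**Figure D2:**
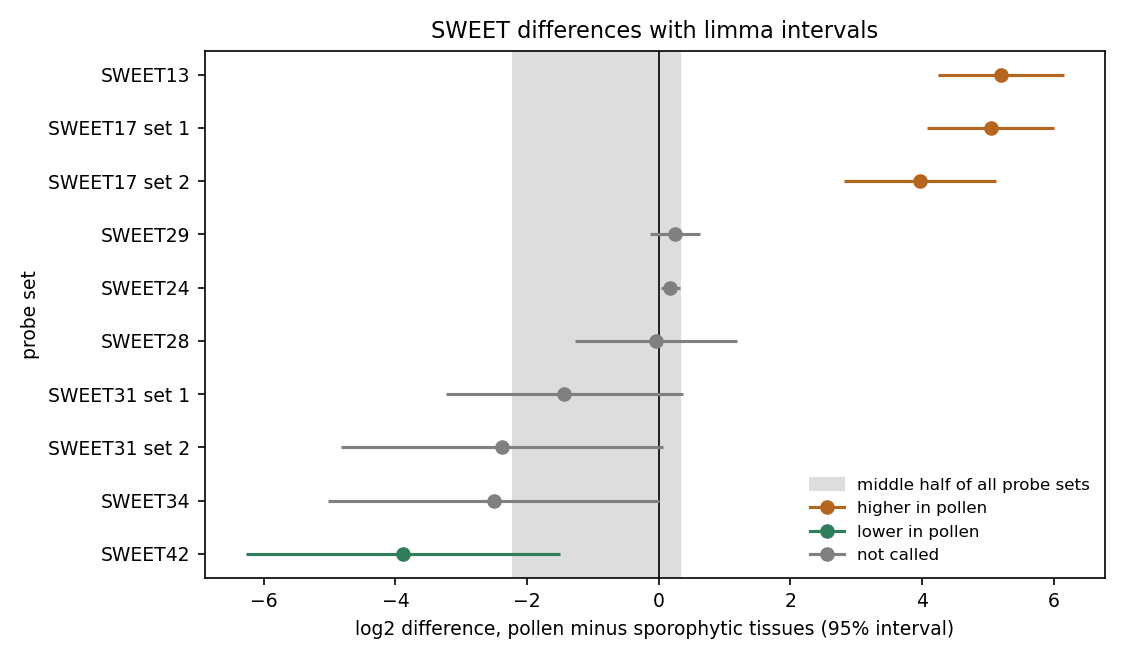
Log2 difference, pollen minus sporophytic tissues, of each SWEET probe set with its 95% interval from limma, coloured by call, over the range between the quartiles of all probe sets (-2.21 to 0.32, grey band). The intervals of SWEET13 and SWEET17 stay above 2.8, that of SWEET42 stays below 0, and those of SWEET28, SWEET29, SWEET31 and SWEET34 cross 0.

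Other scalings of the arrays changed the calls of SWEET24, SWEET28 and SWEET29 and not those of the other members, although SWEET31 and SWEET34 came to overlap between groups. With equal medians the SWEET31 probe sets differed by -0.29 and -1.23. With quantile normalization over the table the median difference of all probe sets was 0.12, and with equal array medians it was 0.93. Under quantile normalization 4 SWEET probe sets were called higher (37.0% of all probe sets) and 1 lower (26.4% of all). With equal medians these counts were 6 (53.3% of all) and 1 (26.2% of all). SWEET13 differed by 5.81 and 6.34 under these scalings, and SWEET42 by -3.08 and -2.74, all called. SWEET29 was called higher under both, by 1.56 and 1.40, SWEET24 under equal medians by 1.32, and SWEET28, at -0.04 as deposited, differed by 0.67 and 1.10, the last of which was called (adjusted p = 0.0386 from limma).

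**Figure D3:**
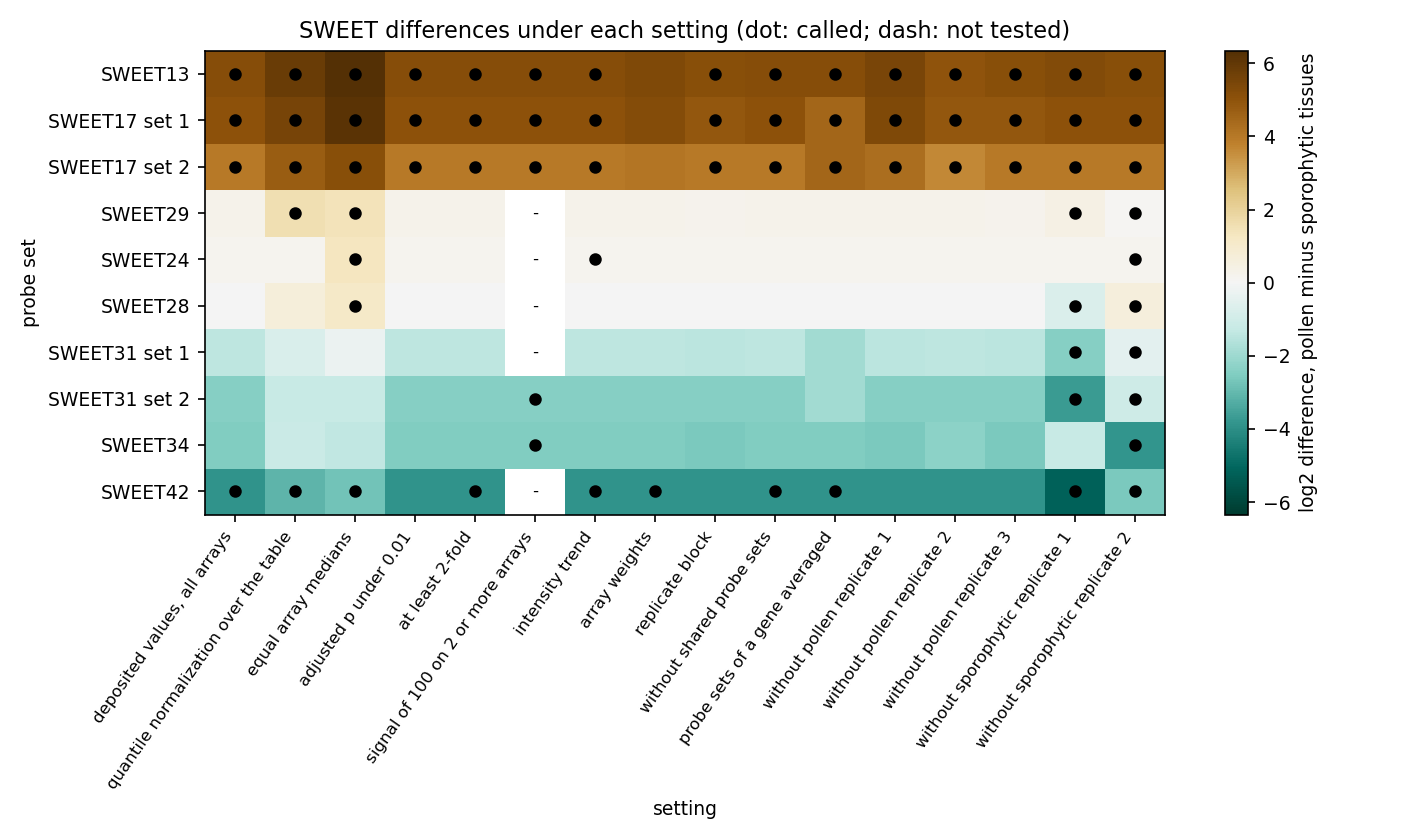
Log2 difference (colour, pollen minus sporophytic tissues) of each SWEET probe set (vertical axis) under the deposited values and 15 alternatives (horizontal axis), with a dot where limma called it and a dash where it was not tested. SWEET13 and SWEET17 were called in every column but the one with array weights (in the column of averaged probe sets both SWEET17 lines hold the gene's mean), and SWEET28 changes sign between columns.

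The 2 sporophytic arrays differed at least 2-fold for 5 of 10 SWEET probe sets, against 20.0% of all probe sets. SWEET42 was lower on replicate 1 than on replicate 2 by 2.57, the SWEET31 probe sets by 2.64 and 1.94, and SWEET28 by 1.33. SWEET34 was higher on replicate 1 by 2.63. SWEET13 and SWEET17 differed by at most 0.16 between these arrays. The summed linear signal of the leaf markers was 124221 on replicate 1 and 67484 on replicate 2. A few CAB3 probe sets carried the gap between these sums, whereas the PSAD probe set with the highest signal had 14.85 on replicate 1 and 15.06 on replicate 2. Of the leaf probe sets, 3 were at least 2-fold higher on replicate 1 and 1 on replicate 2, with a median log2 difference of -0.01 over the 10. The phloem markers were at 4232 to 4435, and the part of these tissues in the SWEET differences was not tested.

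Leaving out a sporophytic array changed several values. Without sporophytic replicate 1, SWEET42 differed by -5.17, SWEET31 by -3.70 and -2.40, SWEET34 by -1.19 and SWEET28 by -0.71. Without sporophytic replicate 2, SWEET42 differed by -2.60, SWEET31 by -1.06 and -0.46, SWEET34 by -3.82 and SWEET28 by 0.62. In these fits the spread comes from the pollen arrays alone, which were nearly identical for SWEET28, SWEET31 and SWEET42, so the lone sporophytic array is assumed to vary as little. Calls made in these fits, also those of SWEET24 and SWEET29, rest on that assumption. SWEET29 differed by 0.44 without replicate 1 and by 0.06 without replicate 2, and SWEET24 by 0.16 and 0.18. SWEET31 and SWEET34 stayed lower in pollen either way, whereas SWEET28 changed sign. These signs follow from the deposited values. For SWEET31 and SWEET34 both sporophytic arrays lay above every pollen array, and for SWEET28 the pollen value lay between them.

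Likeness was measured as the distance between profiles over the 5 arrays, after each probe set's own mean was subtracted. The first SWEET17 probe set was the member nearest to SWEET13, at 0.26 log2 units, and the second lay at 1.38. Outside the family and among probe sets with 1 symbol, the nearest to SWEET13 were LOC100814484 at 0.35, the MYB factor MYB98 at 0.47 and PDK3 at 0.50. MYB98, for instance, had 7.81, 8.59 and 8.29 on the pollen arrays, against 2.66 and 2.65 on the sporophytic arrays. The nearest to the second SWEET31 probe set were OAS-TL1 at 0.10, AGL3L at 0.16 and LOC100797229 at 0.18. Each of these was higher on sporophytic replicate 2 than on replicate 1, as SWEET31 was, and none of the 3 was called. With 5 arrays these distances are a description.

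Other sugar carriers with a symbol were not called higher in pollen. SUT1, a proton-coupled sucrose importer, was called lower in pollen on 2 of 3 probe sets and higher on 0, against 34.5% and 18.9% of all probe sets. Both called probe sets were below a signal of 100 on every array. The log2 difference was -1.83 for one, with 3.34, 2.63 and 2.61 on the pollen arrays, against 4.53 and 4.85 on the sporophytic arrays, and -0.63 for the other. Carriers of monosaccharides were called lower on 3 of 4 probe sets and higher on 0, against the same 34.5% and 18.9% of all, with a median difference of -2.38. Both probe sets of STP1, which imports hexoses, were lower, with log2 differences of -3.02 and -1.74. The gene under the symbol STP fell by 3.80 on the log2 scale, with 4.97, 4.97 and 6.52 on the pollen arrays, against 9.98 and 8.60 on the sporophytic arrays. MST1 stayed at 6.56 on each pollen array, against 6.56 and 7.33 on the sporophytic arrays. The lists for invertases, sucrose synthases, sucrose phosphate synthases, hexokinases and fructokinases held no probe set under their symbols.

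CWINV and SS, looked at after their values were seen, went opposite ways. CWINV, a cell wall invertase that splits sucrose outside the cell, had 6.05, 6.11 and 6.10 on the pollen arrays, against 2.87 and 2.55 on the sporophytic arrays. It rose by 3.38 (standard error 0.12, adjusted p = 1.8e-04 from limma) but stayed below a signal of 100. SS, the sucrose synthase also known as nodulin 100, which splits sucrose inside the cell, was called lower on 2 of its 3 probe sets, with log2 differences of -2.25 and -1.90, against 34.5% of all probe sets. The one at -1.90 was below a signal of 100 on every array. The other probe set had 8.31, 8.86 and 8.86 on the pollen arrays, against 9.63 and 9.32 on the sporophytic arrays (adjusted p = 0.0555 from limma).

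**Figure D4:**
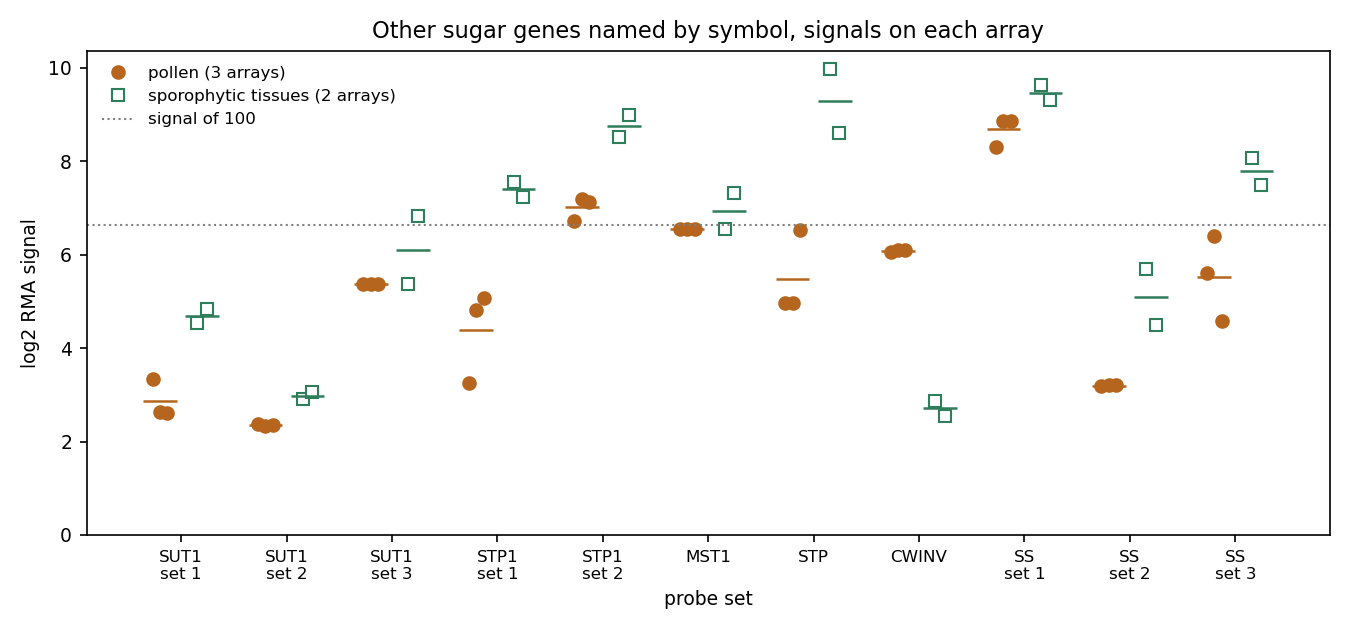
Log2 RMA signal of other sugar genes named by symbol on each array, with 3 pollen arrays (filled circles) left of 2 sporophytic arrays (open squares), the group mean as a short line and a signal of 100 as a dotted line. CWINV is the only one of these 11 probe sets with a higher mean in pollen, about 6.1, against about 2.7 in sporophytic tissues.

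The study's own annotation adds family members that carry no SWEET symbol. That annotation was read only for probe sets that the study listed as higher or lower in pollen. Among these it names 3 probe sets as MtN3 nodulin family, of which 1 is the second SWEET17 probe set. Another, with a weak match to the Arabidopsis gene for SWEET1, had 12.16, 12.97 and 12.93 on the pollen arrays, against 2.46 and 2.54 on the sporophytic arrays, a difference of 10.19. The third probe set, matched to SWEET4 of Arabidopsis, had 6.88, 7.09 and 6.84 on the pollen arrays, against 2.33 on each sporophytic array, a difference of 4.61. Both are listed by the study as higher in pollen on these same arrays, so their direction was fixed by that choice and no test is given.

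Other sugar genes that the study listed on these arrays were again chosen by their change. The 2 probe sets named sugar transporter and 4 of 5 invertase probe sets were on the higher side, and sucrose synthases on the lower. Most of the higher invertase probe sets matched the same Arabidopsis gene. The monosaccharide carrier matched to STP4 had 15.59, 15.51 and 15.54 on the pollen arrays, against 2.58 and 2.71 on the sporophytic arrays. The other carrier had 8.02, 8.54 and 8.65 on the pollen arrays, against 4.91 and 5.32 on the sporophytic arrays. A match to the cytosolic invertase CINV1 had 11.22, 10.36 and 10.25 on the pollen arrays, against 5.91 and 6.23 on the sporophytic arrays. A vacuolar invertase had 4.48, 5.31 and 4.64 on the pollen arrays, against 11.59 and 10.78 on the sporophytic arrays. The 3 probe sets matched to sucrose synthase SUS4 differed by -5.16 to -4.94.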

How the data were processed

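The authors deposited log2 signals of Affymetrix soybean arrays, normalized in AffylmGUI by Robust Multiarray Averaging. The sources used here give no version of it. Pollen (3 arrays) was compared with sporophytic tissues (2 arrays) in limma (version 3.58.1, R version 4.3.3). A linear model was fitted to each of the 37593 probe sets and its variance moderated by empirical Bayes, with 3 residual and 0.854 prior degrees of freedom. Two-sided p-values were adjusted by Benjamini and Hochberg's method, and probe sets under 0.05 were called. Dim probe sets were kept, replicates were not blocked and 1 spread was fitted for both groups. Having 5 arrays limits how precise any difference is.

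Of the probe sets, 8677 had 1 gene symbol, 370 several and 28546 none listed. All SWEET probe sets were named, with up to 4 called members per sugar list and the 3 nearest profiles of 2 SWEET probe sets (the highest mean signal in pollen and in sporophytic tissues). The members and lists were chosen with earlier results of these data known. The annotation holds no gene descriptions, so lists rest on symbols, and lists planned by description were not made. A root list prefix (PT) that took unrelated genes was dropped, and no anther wall gene was found under its own symbol. No sequences were used, and gene positions in the reference assembly served only to find the neighbours of SWEET genes. The steps were tested on simulated data. Plots used matplotlib 3.10.9 (Python 3.11.15).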

Additional observations from a re-analysis of the deposited data

How the results depend on the processing

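SWEET13 and both SWEET17 probe sets kept their direction in each of 15 alternatives and their call in 14, the gene average standing for SWEET17 in 1. Several of these settings, among them the threshold of 0.01, the 2-fold cut and the filter on dim probe sets, leave the differences themselves unchanged. Direction was fixed in advance there, and a 2-fold cut could not remove calls at differences this large, so the tally overstates how much was tested. With array weights, where limma gave the sporophytic arrays weights of 0.096, 0 SWEET probe sets were called higher (2 at an unadjusted p under 0.05), with adjusted p between 0.0619 and 0.235 for these 3 and log2 differences of 4.08 to 5.35. The higher SWEET count was 6 with equal array medians and 3 to 6 when 1 array was left out. The lower count was 0 at an adjusted p under 0.01 (1 at an unadjusted p under 0.05), 2 with the filter on dim probe sets, and 0 to 4 when 1 array was left out (1 at an unadjusted p under 0.05 where it was 0, that is without each pollen array). With the replicate block it was 0 (also 0 at an unadjusted p under 0.05), while 3 stayed called higher. Labels do not say that replicate numbers pair the samples, and deviations that share a number had correlations of 0.024 and 0.016. SWEET28 reversed to 0.67 with quantile normalization, 1.10 with equal medians and 0.62 without sporophytic replicate 2, and was -0.71 without sporophytic replicate 1. The filter left 13831 probe sets, and its 5 SWEET probe sets passed through 1 group alone (pollen for SWEET13 and SWEET17, sporophytic tissues for SWEET31 and SWEET34), so its calls support nothing. Why array weights and the other settings changed calls was not tested.

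Over all probe sets, 7104 were higher. The count was 13917 with quantile normalization, 20047 with equal medians, 4306 at an adjusted p under 0.01, 3784 with the filter, 2182 with array weights, 3511 with the replicate block and 4824 to 10172 without 1 array. Lower probe sets, 12969, became 8118 with the filter, 8350 with array weights, 8634 with the block and 10656 to 16633 without 1 array. Lower calls made up 64.6% of all calls, 41.7% with quantile normalization and 32.9% with equal medians. Signals below 100 on every array limit what the differences of SWEET24, SWEET28 and SWEET29 show.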
